A study of Mus musculus with 24 samples.

Results

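*Avil* encodes advillin, a calcium-dependent actin regulator of the gelsolin family. It was examined together with its relatives *Vil1*, *Gsn*, *Scin*, *Capg*, *Svil* and *Flii*, which makes 7 of the 55335 genes counted. *Avil* was selected on its measured difference between mutant and WT cultures late in differentiation, where it had served as a marker of cytoskeleton and cell motility. The 6 relatives were taken by family membership. The values of *Avil* in that contrast, and in those that contain it, are therefore given as a description with no test.

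Proteins of this family are built from gelsolin repeats, which bind actin and, in most members, calcium. They sever actin filaments, cap the fast-growing end of a filament or bundle filaments, and so set how quickly a cell can remodel its cytoskeleton. Villin and advillin carry an additional headpiece that binds a second filament. Advillin is best known from sensory neurons and tuft cells, and gelsolin is the widely expressed member of connective tissue.

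The cultures held primary osteoblasts (OBs) from parietal bones of mouse pups aged 4 to 5 days, either WT or heterozygous (Het) for G610C, which places a cysteine where a helix glycine of the type I collagen chain from *Col1a2* should be. Both genotypes were on the C57BL/6J background and were differentiated with an ascorbic acid derivative. Bulk RNA of each genotype was sequenced on 3 days of culture (8, 14 and 21), with 4 libraries for each genotype and day and 24 in all. Cells of several pups of 1 genotype were pooled, so the spread between libraries is not a spread between animals. The paper describes separate experiments on different litters, which differed in plating density and in oxygen during early culture. The labels do not say which replicate numbers share a preparation, so the libraries of a group need not be like-for-like replicates.

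Totals ranged from 17140202 to 59734231 counts per library, and replicate 1 was shallower in every group (median 23926750 against 51462304 for replicates 2 to 4). All 11 OB and osteocyte markers examined were detected. All 11 were higher at days 14 and 21 than at day 8 (edgeR, adjusted p under 0.05, 58.3% of all genes called). In Het against WT at days 14 and 21, 0 of the 11 were higher and 5 were lower (16.1% of all genes called). Their median log2 fold change between genotypes was -0.43, against -0.05 over all genes. Levels are given as relative quantity (RQ) × 1000, for which each library was scaled to its own 4 housekeeping genes (the geometric mean over *Actb*, *Actg1*, *Sdha* and *Mrfap1*). As the first pair of these encodes actin itself, the tests were repeated with other scalings. Levels of different genes are compared only as RQ × 1000 per kilobase of exon.

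*Avil* lies at chr10:127000709-127020994 on the plus strand (GRCm38), with 3398 exonic bases. The 250 bases before its start site are printed because this is the member with the widest range between groups. They are taken from RefSeq on GRCm38.p6, chr10:127000459-127000708, plus strand, 5′ to 3′. Capitals mark the matches to 5 motifs searched on both strands, namely TGATGCAA as the core of the C/EBP-ATF composite site, ACCACA as the core of the RUNX site, CCAAT as the box of that name, TATAAA as the TATA box and GGGCGG as the GC box.
Avil: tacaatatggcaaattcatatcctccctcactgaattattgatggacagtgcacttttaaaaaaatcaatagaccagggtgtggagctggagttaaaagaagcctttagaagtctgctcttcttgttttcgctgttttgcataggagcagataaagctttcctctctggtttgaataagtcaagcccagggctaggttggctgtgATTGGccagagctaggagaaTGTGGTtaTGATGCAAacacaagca
The window held TGATGCAA once, beginning 17 bases before the start site, a string present in 0.791% of 32851 such windows. ACCACA was matched once in reverse at 25 bases before the start (14.0% of windows) and CCAAT once in reverse at 45 bases (33.8% of windows). TATAAA and GGGCGG were not matched, and they occur in 12.4% and 32.7% of windows. The window was poor in G and C (42%, above 15.9% of all windows). These matches are letters in a window and not measured binding.

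At day 8, before the late stage of the culture, *Avil* was detected in every library of both genotypes. RQ × 1000 in WT was 7.80, 44.1, 46.8 and 32.1 in replicates 1 to 4. In Het it was 11.8, 30.6, 35.1 and 22.4. The genotypes overlapped, and the fold of Het to WT was 0.761 (95% interval 0.346 to 1.67, edgeR quasi-likelihood test, adjusted p = 0.849). Day 8 had no part in the selection of *Avil*. In replicate 1 Het was above WT (ratio 1.51), and in each of replicates 2 to 4 it was below (0.693 to 0.749).

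At day 14 the genotypes stood apart. WT libraries held 7.95, 24.4, 23.2 and 17.8. Het libraries held 68.2, 282.3, 169.5 and 154.2. The lowest Het library, replicate 1, was still above the highest of WT.

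The same separation was present at day 21. WT held 6.05, 14.5, 12.1 and 9.85, and Het held 64.1, 119.2, 128.8 and 113.3. Over both days the mean was 14.5 ± 6.83 in WT (SD, n = 8) and 137.5 ± 69.1 in Het (SD, n = 8), a ratio of 9.49. The fitted fold was 9.42 (95% interval 6.19 to 14.3). By fitted rise *Avil* stood at rank 4 of the 14889 genes whose mean count reached 50, which restates its selection.

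Replicate 1 was low in *Avil* in all 6 groups, at 0.190 to 0.533 of the mean of replicates 2 to 4. The ratio of Het to WT hardly shared this gap. Within replicate 1 the ratio over days 14 and 21 was 9.46, and within replicates 2 to 4 it was 9.50. Across the 8 same-numbered pairs of libraries it ran from 7.31 to 11.6.

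**Figure D1:**
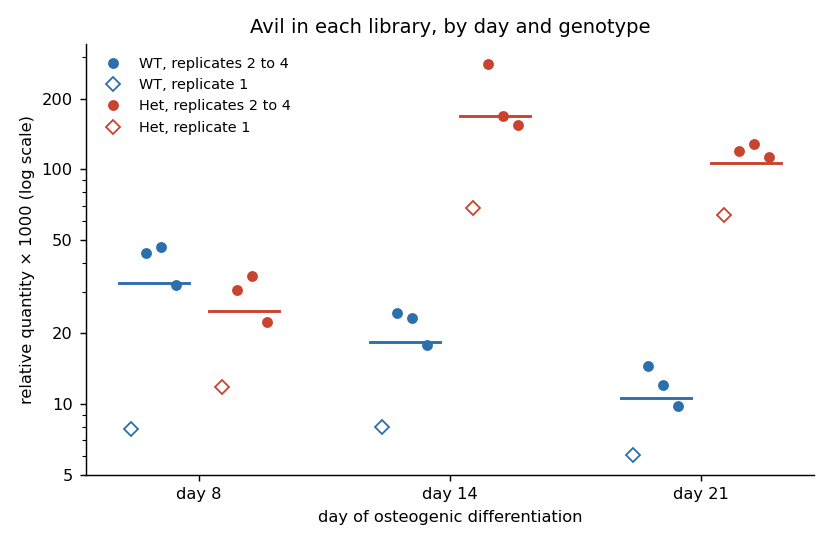
RQ × 1000 of *Avil* (log axis) in each of the 24 libraries by day of differentiation, WT in blue and Het in red, with the group mean as a bar and replicate 1 as open diamonds. At day 8 the genotypes overlap, at days 14 and 21 all Het libraries (64.1 to 282.3) lie above all WT libraries (6.05 to 24.4), and replicate 1 is the lowest of its group throughout.

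The courses over time ran in opposite directions in the 2 genotypes. In WT the mean at days 14 and 21 was 0.443 of that at day 8, and in Het it was 5.505 times that at day 8. Taken within a replicate number, all 8 Het values at days 14 and 21 exceeded their day 8 value (ratios 3.67 to 9.24). In WT 7 of 8 were below it (0.258 to 1.02), the exception being replicate 1 at day 14. As a description, the fitted difference of the genotype effect between the stages was 3.64 on the log2 scale (SE 0.58).

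Averaged over both genotypes, days 14 and 21 against day 8 gave a log2 fold change of 0.60 for *Avil* (SE 0.28), given without a test because it contains the values that selected the gene. This average describes neither genotype, since WT alone gave -1.22 and Het alone 2.42. From day 14 to day 21 *Avil* decreased in all 8 same-numbered pairs, by ratios of 0.422 to 0.940. The mean at day 21 was 0.579 of that at day 14 in WT and 0.631 in Het.

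A gene on the other strand shares part of the *Avil* locus. *Tsfm*, which encodes a mitochondrial translation elongation factor, overlaps 165 exonic bases of *Avil* (4.86% of them), and the strand setting of the counting is not given in the sources used here. Reads from these shared bases cannot be told apart without strand. Mean RQ × 1000 of *Tsfm* over days 14 and 21 was 28.6 ± 2.58 in the WT libraries and 45.5 ± 9.67 in those of Het (SD, n = 8), and the log2 fold change was 0.67 (SE 0.11, edgeR adjusted p = 0.00141). Per kilobase, *Tsfm* was at 9.86 ± 0.888 in WT and 15.7 ± 3.33 in Het, and *Avil* at 4.26 ± 2.01 and 40.5 ± 20.3 (RQ × 1000, SD, n = 8). *Ctdsp2*, a phosphatase gene that ends 733 bases upstream on the same strand, gave a log2 fold change of 0.02 (SE 0.06, adjusted p = 0.840).

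Several markers of the cells in which advillin is best known had few counts. Of 8 sensory neuron markers, *Trpv1*, *Scn9a*, *Isl1* and *Mrgprd* had under 10 counts in every Het library of days 14 and 21. The sum over the 8 was 14.3 to 16.8 in Het at day 14 and 15.1 to 18.4 in WT (RQ × 1000). At day 21 it was 14.5 to 16.3 in Het and 13.04 to 15.5 in WT. Most of this sum came from *P2rx3*, an ATP-gated channel of sensory neurons, which held 103 to 324 counts in Het at day 14 and 120 to 353 at day 21. Of 9 gut epithelium and tuft cell markers, the tuft cell regulator *Pou2f3* stayed at or under 0.793 in all libraries. The sum over these 9 was 84.4 to 196 in Het at day 14 and 147 to 163 in WT, so the genotypes overlapped. *Trpm5*, a tuft cell channel, was 4.91 ± 0.222 in Het and 6.28 ± 0.639 in WT at day 14 (SD, n = 4). At day 21 it was 5.20 ± 0.510 in Het and 4.27 ± 0.671 in WT. At days 14 and 21, 0 of 4 tested neuron markers were called in Het against WT, and of 6 tested gut and tuft cell markers 0 were higher and 1 lower (edgeR, with 16.1% of all genes called). None of the 4 neuron markers had an unadjusted p under 0.05. Over time, 4 of the 6 gut and tuft cell markers were higher at days 14 and 21 than at day 8 and 1 was lower. *Pou2f3* was among those higher (log2 fold change 1.59, SE 0.41, edgeR adjusted p = 0.0022). Of the 4 neuron markers 1 was higher over time and 2 were lower, and 58.3% of all genes were called in that comparison. In bulk RNA, a change in the number of cells of a type and a change in RNA per cell cannot be told apart, for *Avil* as for the genes that follow.

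By the root mean square difference of centred log2 RQ over the 24 libraries, the genes with courses nearest to *Avil* among 14889 compared were *Cdsn* (0.911), *Cth* (0.948), *Gm20652* (1.03), *Cxadr* (1.09), *Hsd17b1* (1.09) and *Cyb5r1* (1.10). The spread of *Avil* itself on this scale was 1.55, so none of them followed it closely. All 6 were higher in Het at days 14 and 21 by mean RQ, by 1.96 to 3.86 times, below the ratio of *Avil*. As the 6 were picked for a course like that of *Avil*, a rise in late Het follows largely from the choice. The libraries share their scaling genes and depth in this measure, and it was not tested.

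Among its relatives, *Avil* stood at rank 5 of 7 per kilobase by mean share in WT on each day and in Het at day 8, and at rank 4 in Het at days 14 and 21. Per kilobase, mean RQ × 1000 in WT at day 8 was 228 for *Gsn*, 59.4 for *Capg*, 51.4 for *Flii*, 11.5 for *Svil*, 9.63 for *Avil*, 6.73 for *Scin* and 0.0906 for *Vil1*. In this order *Capg* and *Flii* overlapped between libraries, and *Avil* overlapped both *Svil* and *Scin*. In Het at day 21 the order was *Gsn* (368), *Capg* (128), *Flii* (56.8), *Avil* (31.3), *Svil* (14.3), *Scin* (0.790) and *Vil1* (0.0877), and *Avil* overlapped neither neighbour, while *Scin* and *Vil1* overlapped. At day 14 in Het *Avil* (49.6 ± 25.9) and *Flii* (53.4 ± 7.03) did not differ beyond their spread (SD, n = 4).

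Summed over the 7 genes, the family held 559 ± 29.5 per kilobase in WT and 593 ± 40.6 in Het over days 14 and 21 (SD, n = 8). *Avil* made up 0.774% ± 0.391 of that sum in WT and 6.75% ± 3.02 in Het. *Gsn* made up 73.1% ± 2.92 and 63.1% ± 3.24. *Gsn* remained the most abundant member in all 24 libraries, at 57.1% to 78.0% of the sum.

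Of the 6 relatives, 1 was higher in Het at days 14 and 21 and 0 were lower (edgeR, adjusted p under 0.05), against 16.1% of all genes called in that comparison. The 1 was *Capg*. By DESeq2's Wald test 2 were called, *Capg* and *Gsn*, where 22.8% of all genes were called. With the replicate number as a block 2 were called, *Capg* and *Scin*, with 23.6% of all genes, and with replicate 1 as a covariate the same pair, with 25.5%. In replicates 2 to 4 alone 3 of 6 were called, *Gsn*, *Scin* and *Capg*, with 39.4% of all genes. On day 14 alone 0 were called, with 0.185%.

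**Figure D2:**
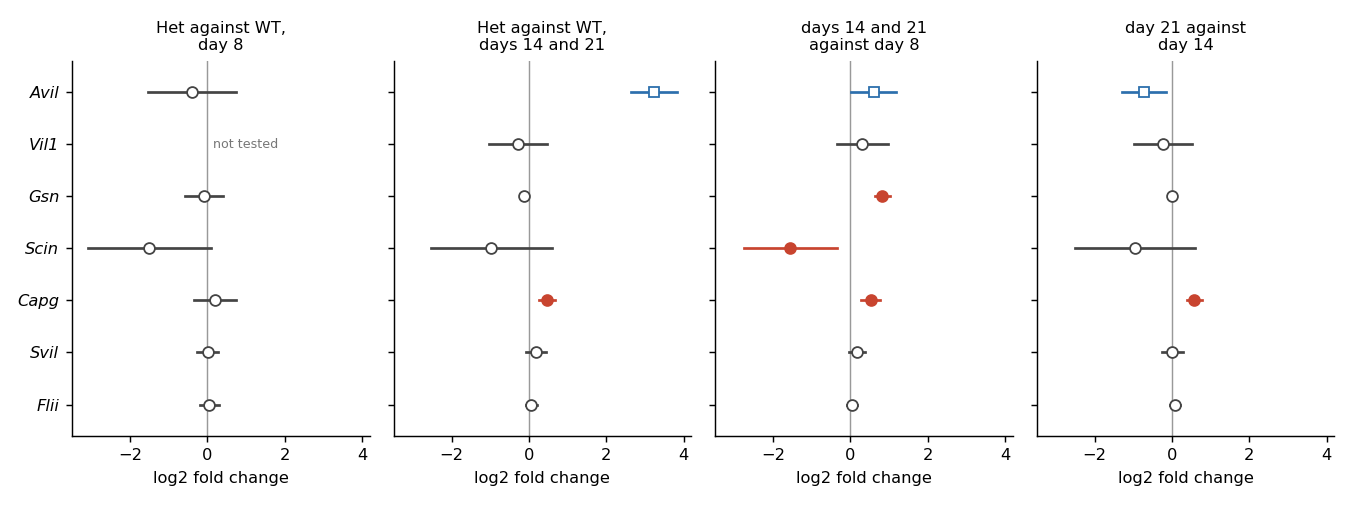
Log2 fold change of the 7 genes in 4 comparisons, with 95% intervals from edgeR as lines. Filled red circles passed an adjusted p of 0.05, open circles did not, and blue squares are descriptions of *Avil* in contrasts with no test. In Het against WT at days 14 and 21 *Avil* lies at 3.24 and the relatives between -0.97 (*Scin*) and 0.47 (*Capg*).

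At day 8, 0 of 5 tested relatives were called in Het against WT, and 0% of all genes were called by edgeR. None of the 5 had an unadjusted p under 0.05, and DESeq2 called none of them. Across all genes 1817 of 18222 had an unadjusted p under 0.05 in edgeR, and DESeq2 called 431 (2.37%). In replicates 2 to 4 alone 2 relatives were called at day 8, *Scin* and *Capg*, with 18.7% of all genes. *Vil1* had too few counts to be tested at day 8. For the difference of the genotype effect between days 14 and 21 and day 8, edgeR called 0 of 6 relatives, where 0.171% of all genes were called, and again none had an unadjusted p under 0.05 or a DESeq2 call.

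*Gsn*, the severing and capping protein that gives the family its name, changed with time in both genotypes. At day 8 RQ × 1000 was 986, 612, 606 and 676 in WT and 932, 525, 595 and 665 in Het. By RQ all libraries of days 14 and 21 lay above all of day 8, from 1230 to 1373 in WT and from 1070 to 1327 in Het. The log2 fold change of days 14 and 21 against day 8 was 0.82 (SE 0.09, edgeR adjusted p = 1.35e-07), with a median of 0.16 over all genes. Over time 3 of the 6 relatives were called, *Gsn* and *Capg* higher and *Scin* lower, against 58.3% of all genes. Of the 11911 genes called, 8351 were higher, and with TMM scaling 5601 of 12293 were, with a median of -0.02. At day 8 replicate 1 was 1.56 times the mean of replicates 2 to 4 in WT and 1.57 times in Het, and later it was between 0.958 and 1.07 times that mean. The rise in RQ was 1.27 times in WT and 1.32 times in Het within replicate 1, and 2.06 and 1.95 times within replicates 2 to 4. Scaled to the total count, replicate 1 of WT was nearly level, at 542, 550 and 553 cpm on days 8, 14 and 21. Replicate 1 of Het held 507, 640 and 523 cpm, so the full separation of days did not hold on this scale. Replicates 2 to 4 still rose, from 331 to 405 cpm at day 8 to 536 to 633 cpm later. In Het against WT at days 14 and 21 the log2 fold change was -0.13 (SE 0.05, adjusted p = 0.103). At day 21 itself the 4 Het libraries (1070 to 1224) were all below the 4 WT libraries (1248 to 1373), and at day 14 the genotypes overlapped.

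*Capg* encodes a protein that caps filament ends without severing them and is abundant in macrophages. RQ × 1000 at day 8 was 227, 120, 113 and 141 in WT and 223, 136, 163 and 166 in Het. On day 14 it was 205, 145, 124 and 156 in WT and 188, 268, 223 and 231 in Het. On day 21 it was 266, 224, 252 and 234 in WT and 307, 323, 309 and 354 in Het. The genotypes overlapped at days 8 and 14, where replicate 1 of Het was below replicate 1 of WT, and they did not overlap at day 21.

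The log2 fold change of *Capg* in Het against WT at days 14 and 21 was 0.47 (SE 0.09, adjusted p = 0.00484), with Het above WT in 7 of 8 same-numbered pairs. The mean ratio was 1.05 within replicate 1 and 1.504 within replicates 2 to 4. Day 14 on its own gave 0.53 (SE 0.16, adjusted p = 0.159). *Capg* was also higher at days 14 and 21 than at day 8 (0.52, SE 0.12, adjusted p = 5.90e-04) and at day 21 than at day 14 (0.57, SE 0.09, adjusted p = 6.11e-04, where it was the 1 relative of 6 called, with 19.3% of all genes called). In Het alone the last of these was not called (0.51, adjusted p = 0.0812, with 0.374% of all genes called). The rise from day 8 was lost with the total count as the scaling (0.23, adjusted p = 0.0642). It was also lost in WT alone (0.39, SE 0.18, edgeR adjusted p = 0.0885, with 10405 of 19124 genes called).

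Macrophage markers were higher in the same groups as *Capg*, but not in step with it across libraries. The summed RQ × 1000 of 8 markers was 218 to 441 in WT and 373 to 896 in Het at day 8, 1266 to 4062 and 2748 to 6473 at day 14, and 5477 to 6442 and 7118 to 16151 at day 21. In Het against WT at days 14 and 21, 7 of the 8 were higher (edgeR, adjusted p under 0.05, 16.1% of all genes called). Their median log2 fold change was 0.96, against -0.05 over all genes. At day 14 the Het library with the lowest *Capg* (replicate 1) also had the lowest sum. At day 8, in contrast, Het replicate 1 had the highest *Capg* of its group (223) and the lowest sum (373). From day 8 to day 14 in WT the mean of *Capg* went from 150.3 ± 52.3 to 157.5 ± 34.4 (SD, n = 4), while the marker sums did not overlap between these days. The part of macrophages in the *Capg* difference was not tested.

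*Scin*, on chr12:40059769-40134228 (minus strand), encodes scinderin, a calcium-dependent severing protein known from secretory cells. It is the relative with the widest spread, and the 250 bases before its start site are therefore also shown (RefSeq, GRCm38.p6, chr12:40134229-40134478, minus strand, 5′ to 3′, capitals as for *Avil*).
Scin: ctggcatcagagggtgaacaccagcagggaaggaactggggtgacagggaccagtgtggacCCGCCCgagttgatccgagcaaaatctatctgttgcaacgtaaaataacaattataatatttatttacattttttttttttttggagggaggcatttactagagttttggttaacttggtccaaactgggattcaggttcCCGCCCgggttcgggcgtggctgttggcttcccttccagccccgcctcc
Of the 5 motifs only GGGCGG was matched, in reverse, at 189 and at 49 bases before the start. The window held 49.2% G and C and 9 CpG, against 42% and 1 for *Avil*. The windows of *Avil* and *Scin* thus shared no motif of the 5.

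At day 8 *Scin* in WT was nearly the same in all libraries, at 20.9, 19.9, 19.9 and 20.0 (RQ × 1000). In Het it was 18.9, 1.59, 1.80 and 7.17. All 4 Het libraries were below all WT libraries, but replicate 1 only just. The log2 fold change was -1.49 (SE 0.69, edgeR adjusted p = 0.527). Without Het day 8 replicate 1 it was -2.51 (edgeR adjusted p = 0.0233, with 1610 of 18443 genes called).

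Later the level dropped and the replicates split. WT held 19.6, 2.89, 2.39 and 8.32 at day 14 and 6.15, 3.84, 3.28 and 3.59 at day 21. Het held 14.8, 1.04, 0.474 and 1.22 at day 14 and 7.72, 0.540, 0.477 and 0.739 at day 21. In Het replicates 2 to 4 these are 12 to 27 counts per library. Replicate 1 was the highest library of all 6 groups.

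In Het against WT at days 14 and 21 the log2 fold change of *Scin* was -0.97 (SE 0.74, edgeR adjusted p = 0.398). With the replicate number as a block it was -1.68 (SE 0.37, adjusted p = 0.00633), and in replicates 2 to 4 alone it was -2.48 (SE 0.33, adjusted p = 7.65e-05). The mean ratio of Het to WT was 0.875 within replicate 1, where the genotypes overlapped, and 0.185 within replicates 2 to 4, where they did not. Days 14 and 21 against day 8 gave -1.55 (SE 0.58, adjusted p = 0.0256). That call was lost without Het day 8 replicate 1 (-1.05, adjusted p = 0.125). It was also lost in Het alone (-1.27, SE 1.02, edgeR adjusted p = 0.356, with 7691 of 19086 genes called).

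The sum of chondrocyte markers was, for the most part, high and low in the same libraries as *Scin*. The summed RQ × 1000 of *Acan*, *Col2a1*, *Sox9*, *Col10a1* and *Matn1* at day 8 was 32697 in WT replicate 1 and 18862 to 23833 in WT replicates 2 to 4. In Het it was 31808 in replicate 1 and 5289, 6387 and 16229 in replicates 2 to 4. In replicate 1 at day 14 the sum was higher in Het (21511 against 20023 in WT), while *Scin* was lower in Het (14.8 against 19.6). At day 21 the sum was 7550 in WT replicate 1 and 7546 in Het replicate 1, and at most 1304 in Het replicates 2 to 4. Of the 5 markers, 4 were lower at days 14 and 21 than at day 8 (edgeR, 58.3% of all genes called). The other, *Col10a1*, was not called (0.78, SE 0.52, edgeR adjusted p = 0.211). Between genotypes at days 14 and 21, 1 of the 5, *Sox9*, was lower in Het (-0.70, SE 0.20, edgeR adjusted p = 0.0243). In that comparison 16.1% of all genes were called. The part of these cells in the *Scin* values was not tested.

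**Figure D3:**
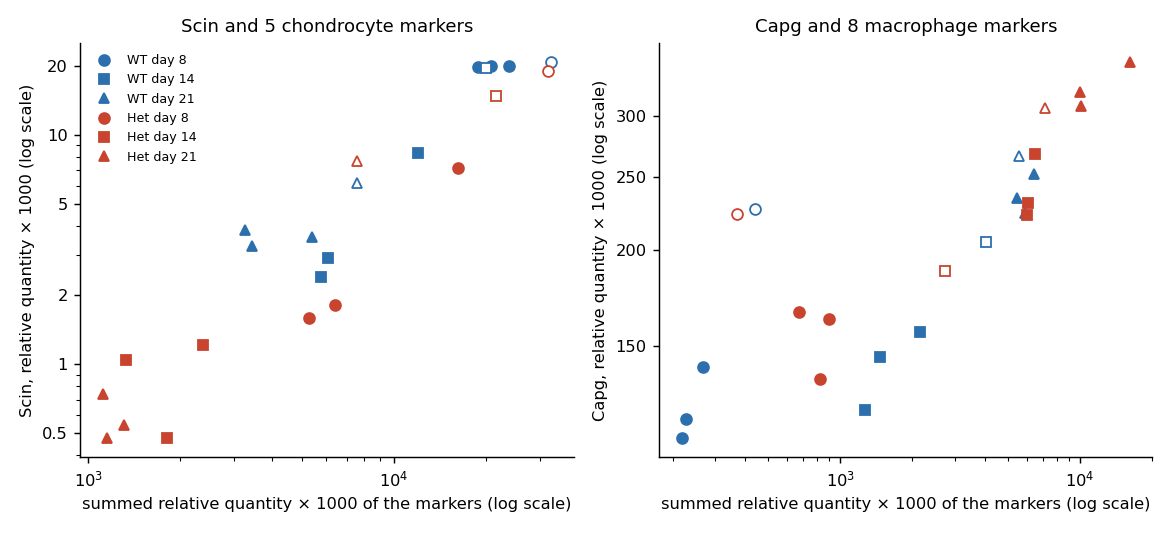
Each point is 1 of the 24 libraries (circles day 8, squares day 14, triangles day 21, WT blue, Het red, open symbols replicate 1), on log axes. Left, *Scin* against the summed RQ × 1000 of 5 chondrocyte markers, which both run from Het replicates 2 to 4 at day 21 (*Scin* 0.477 to 0.739) up to the day 8 libraries of WT (19.9 to 20.9). Right, *Capg* against 8 macrophage markers, where the replicate 1 libraries of day 8 lie above the others of similar marker sums.

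*Svil* encodes supervillin, a large membrane-associated protein with a villin-like end. Its locus is chr18:4920540-5119299, and its RQ × 1000 ran from 89.3 to 152 in WT and from 98.3 to 188 in Het over all days. At day 21 it was 89.3, 152, 139 and 119 in WT and 109, 188, 176 and 141 in Het, with Het above WT in all 4 same-numbered pairs and the groups overlapping. At day 14 it was 137, 136, 129 and 134 in WT and 124, 116, 168 and 157 in Het, and Het was above WT in 2 of 4 pairs. The log2 fold change at days 14 and 21 was 0.19 (SE 0.12, edgeR adjusted p = 0.327, 95% interval -0.08 to 0.45). Replicate 1 was the lowest library at day 8 in both genotypes and at day 21 in both.

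*Flii* encodes flightless I, which joins gelsolin repeats to leucine-rich repeats and also acts as a transcriptional coregulator. It was the steadiest member, between 236 and 314 (RQ × 1000) in all 24 libraries. Its log2 fold change in Het against WT at days 14 and 21 was 0.07 (SE 0.06, adjusted p = 0.493, 95% interval -0.06 to 0.20). Days 14 and 21 against day 8 gave 0.04 (SE 0.06, adjusted p = 0.610), which turned to -0.14 with TMM scaling (adjusted p = 0.0147) and to -0.26 with the total count (adjusted p = 1.55e-04). No direction over time can therefore be given for *Flii*. Its exons share 64 bases with *Llgl1* on the other strand, which gave a log2 fold change of -0.03 (SE 0.04, adjusted p = 0.643) between the genotypes.

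*Vil1* encodes villin, the bundling protein of intestinal microvilli and the closest relative of advillin in domain structure. It had 3 to 18 counts per library, at RQ × 1000 of 0.129 to 0.640, and its exons share 49 bases with *Usp37*. The log2 fold change in Het against WT at days 14 and 21 was -0.28 (SE 0.35, adjusted p = 0.643, 95% interval -1.03 to 0.47). With so few counts the interval is wide, and rises of up to 0.47 or falls of up to 1.03 on the log2 scale lay inside it.

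**Figure D4:**
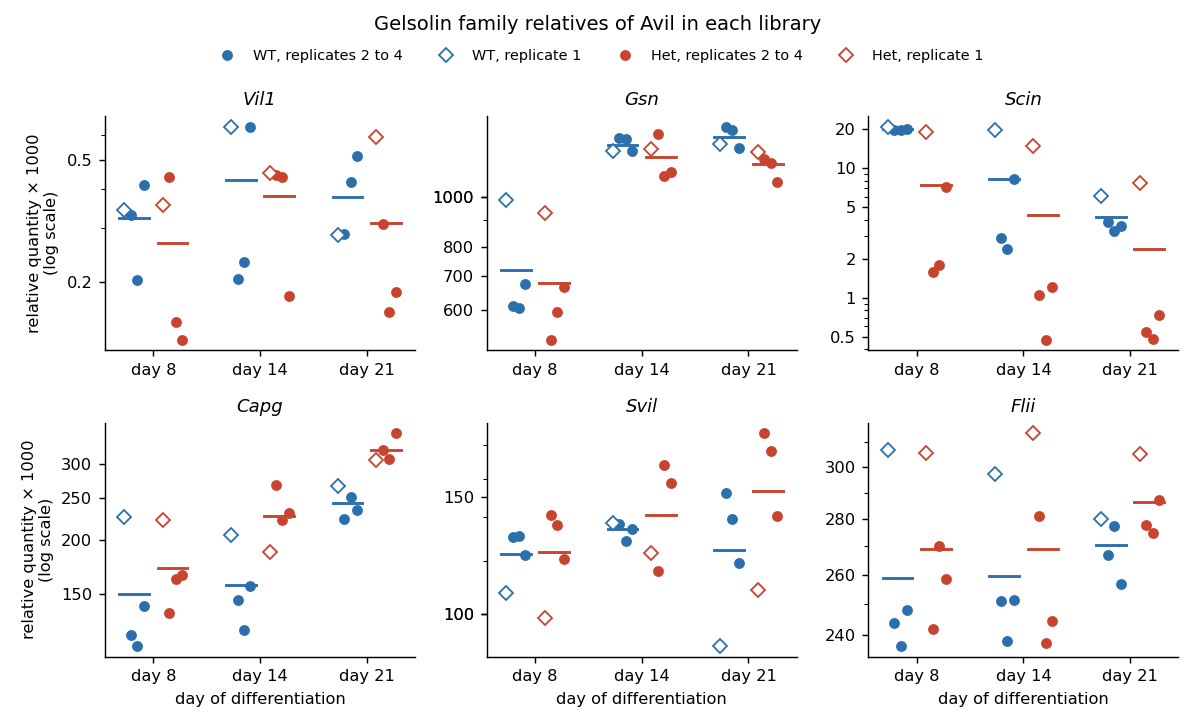
RQ × 1000 (log axis, own range in each panel) of the 6 relatives in each library by day, WT blue, Het red, bars for group means and open diamonds for replicate 1. *Gsn* and *Capg* are higher later, *Scin* is lower later and splits replicate 1 from the others, and *Flii* stays between 236 and 314.

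Other actin regulators gave a frame for these values, as a list of 65 genes for capping, severing, monomer binding, nucleation, bundling and *Flii* binding, of which 64 were tested. At days 14 and 21, 12 were higher and 4 lower in Het (25% of them, against 16.1% of all genes), with a median log2 fold change of 0.02. At day 8 none was called, and 9 had an unadjusted p under 0.05. The largest rises were in *Coro1a* (1.06, SE 0.19, adjusted p = 0.00312), *Was* (0.97), *Lcp1* (0.97) and *Fmnl1* (0.96), which are best known from blood cells and encode an Arp2/3 regulator, a nucleation activator, a bundling protein and a formin. These rises went with those of the macrophage markers, whose part in them was not tested. The largest falls were in *Daam2* (-0.42), a formin, *Pfn2* (-0.36), a monomer-binding profilin, *Pls3* (-0.24), a bundling plastin, and *Daam1* (-0.15).

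By role, 4 of 11 severing and turnover genes were higher in Het at days 14 and 21 (36.4%, against 16.1% of all genes called by edgeR). Of 24 nucleation genes 5 were higher and 2 lower (29.2%), and none of 4 pointed-end genes was called. Of 8 capping genes 1 was higher (12.5%), and of 11 tested bundling genes 1 was higher and 1 lower (18.2%), both near the share over all genes. Over time 22 of the 64 were higher and 11 lower at days 14 and 21 than at day 8 (51.6%, against 58.3% of all genes). The rises were led by *Gmfg* (4.05), a debranching factor of leukocytes, with *Was*, *Fmnl1* and *Lcp1* (3.25, 3.09 and 2.99). Falls were led by *Spire2* (-0.99) and *Diaph3* (-0.95), both nucleators, *Fscn1* (-0.73), which encodes the bundling protein fascin, and *Wasf1* (-0.73), an activator of nucleation. Both *Flii* partners, *Lrrfip1* and *Lrrfip2*, were higher over time and neither was called between the genotypes. From day 14 to day 21, 14 were higher and 2 lower (25%, against 19.3% of all genes), led by *Gmfg*, *Lcp1*, *Was* and *Fmnl1* (1.01 to 1.05) and by *Diaph3* (-0.33) and *Fscn1* (-0.32).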

How the data were processed

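Gene-level read counts, unnormalised, were deposited by the authors for each of the 24 bulk RNASeq libraries. The submitters' processing notes name cutadapt 2.5, STAR 2.73a, featureCounts 1.6.4 of Subread and the mm10 build. The strand setting and the treatment of multimapping reads are not given in the sources used here. Coordinates and exonic lengths came from GENCODE mouse release 21 (GRCm38), which matched 54587 of the 55335 identifiers. Promoters came from RefSeq (GRCm38.p6), and those of 6 of the 7 genes were examined. Members on chromosome 18, where *Svil* lies, were left out of this step.

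RQ was each count over the geometric mean count of the 4 housekeeping genes. For tests, edgeR 4.0.16 (quasi-likelihood, filterByExpr, the housekeeping geometric mean as library size, Benjamini-Hochberg over all genes at 0.05) was fitted in R 4.3.3 to 16 libraries of days 14 and 21 with day as a covariate, to 8 libraries of day 8, and to all 24 for the contrasts that involve day 8. The edgeR fits of the main comparisons were tried on simulated counts that held no replicate effect. The other steps were not tried in this way. P-values measure the spread between these wells only.

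Replicate numbers were checked for pairing: over 12 pairs, same-numbered WT and Het deviations from group means correlated at 0.197 to 0.712 (median 0.438), against a median of -0.12 over 36 pairs of different numbers. Pairs of different numbers reached 0.561, so the ranges overlapped. Replicate 1 differed from replicates 2 to 4 in depth and in genes such as *Avil* and *Scin*. A shared offset of replicate 1 would by itself raise the same-number values. The check therefore cannot show that replicates 2 to 4 pair across genotypes by number. Same-numbered pairs are pairs by label only. The main fits used no block, and blocked values are given as an alternative where a call changed.

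The members, gene lists and tests were chosen with earlier results of these data known. A planned test of *Avil* over time was dropped, since it contains the values that selected the gene. Named genes are the 7 members, genes whose exons overlap them, the 6 nearest to *Avil* in course, and for each comparison up to 4 rises and 4 falls among called actin regulators with a mean of at least 50 counts. *Ctdsp2* and the cell markers were named as neighbours or for cell types. Alternatives were TMM, DESeq2 size factors, the total count, *Mrfap1* and *Sdha* alone, DESeq2 1.42.0, exact permutation tests of mean RQ, no filter, the replicate block, replicate 1 as a covariate, replicates 2 to 4 alone, single days or genotypes, and each library left out. A listed cell marker is not reported here and was left out of its list.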

Additional observations from a re-analysis of the deposited data

Results flagged for a closer look

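In 42 groups of 4 libraries (7 genes in 6 groups), 5 held a library set apart from the other 3 by Dixon's criterion, which chance gives in about 1 of 20 groups. *Scin* in Het replicate 1 was 14.8 at day 14 (RQ × 1000), against 0.474 to 1.22 in the others. At day 21 it was 7.72 in Het replicate 1, against 0.477 to 0.739. In WT at day 8 *Scin* in replicate 1 was 20.9, against 19.9 to 20.0, a small gap in a narrow group. *Flii* in WT replicate 1 was 307 at day 8, against 236 to 248. *Vil1* in Het replicate 4 was 0.180 at day 14, from 4 counts, against 0.438 to 0.453.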

How the results depend on the processing

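Across 982 log2 fold changes of the 7 genes and their alternatives, 889 kept direction and side of the threshold (for *Avil* descriptions, their size), 6 lost a call, 11 gained one, 2 moved and 74 turned in sign, of which 45 came from leaving out 1 library. The gains include *Gsn* between genotypes at days 14 and 21 and *Scin* at day 8 by exact permutation, where the p-value was unadjusted. Relatives called in Het against WT at days 14 and 21 numbered 1 (16.1% of all genes), and 2 by DESeq2 (*Gsn*, *Capg*, 22.8% of all genes), 2 by exact permutation tests (*Gsn*, *Capg*, unadjusted, not run over all genes), 2 with the replicate block (*Scin*, *Capg*, 23.6%) and 2 with replicate 1 as a covariate (*Scin*, *Capg*, 25.5%), 3 in replicates 2 to 4 alone (*Gsn*, *Scin*, *Capg*, 39.4%) and 0 on day 14 alone (0.185%), and 1 to 2 with a library left out. At day 8 the 0 became 2 in replicates 2 to 4 alone (*Scin*, *Capg*, 18.7%) and 0 to 1 with a library left out. The 1 was *Scin* without Het day 8 replicate 1, where 1610 of 18443 genes were called. By exact permutation *Scin* had an unadjusted p of 0.0286, the smallest that 4 against 4 libraries can give. Over time the count was 2 to 3 with a library left out, and from day 14 to 21 it was 0 in Het alone (0.374%). The replicate block, which pairs libraries of 1 number, changed the call of *Scin* between genotypes (-1.68) and no other call. *Gsn* between genotypes passed without Het day 14 replicate 2 (edgeR adjusted p = 0.0388).

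Signs turned mostly in values near 0. In the difference of the genotype effect between stages, *Vil1* turned to -0.0538 with TMM, -0.0393 with DESeq2 size factors, -0.0104 with the total count, -0.0066 by DESeq2, -0.0117 with the covariate and -0.0697 in replicates 2 to 4, where *Scin* was -0.0072. *Flii* turned there to -0.0386 (TMM), -0.0238 (DESeq2 size factors) and -0.0261 (replicates 2 to 4). Over time *Avil* was -1.2234 in WT alone, *Svil* -0.0296 (TMM) and -0.1417 (total count), and *Flii* -0.1379 (TMM), -0.1011 (DESeq2 size factors), -0.2601 (total count) and -0.0202 (*Mrfap1* and *Sdha*). From day 14 to 21 *Gsn* was -0.0485, -0.0483, -0.0468 and -0.0051 under these 4 scalings, -0.0002 in replicates 2 to 4 and -0.0442 in Het alone. *Svil* was -0.0292, -0.0293 and -0.0310 under the first 3 scalings, -0.0159 with the replicate block, -0.0107 with the covariate and -0.0988 in WT alone. With a library left out, day 8 values ran from -0.2737 to 0.1053 (*Gsn*), -0.0534 to 0.1082 (*Svil*) and -0.0102 to 0.1480 (*Flii*). The stage difference ran from -0.2380 to 0.4112 (*Vil1*), -0.2320 to 0.1472 (*Gsn*), -0.6174 to 1.4946 (*Scin*) and -0.0803 to 0.0781 (*Flii*), and days 14 to 21 from -0.0124 to 0.0300 (*Gsn*) and -0.0507 to 0.0769 (*Svil*). The cause of these changes was not tested. *Vil1*, and *Scin* in late Het cultures, are limited by their low counts.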

Other observations

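*Avil* lies on chromosome 10 269.8 kb from *Ddit3*, which encodes CHOP, a transcription factor of the integrated stress response. This neighbourhood was looked at after the values were seen. Among 33 other tested genes within 500 kb of *Avil*, 7 were higher and 3 lower in Het at days 14 and 21 (30.3%, against 16.1% of all genes), with a median log2 fold change of 0.02. *Ddit3* changed by 1.20 (SE 0.10, edgeR adjusted p = 3.21e-06), and a second annotated entry with that symbol at the same place by 1.28. *Tsfm* (0.67) and *Arhgap9* (0.87, SE 0.16, adjusted p = 0.00353) were the next highest, and the lowest were *Gm47200* (-0.53) and *Gli1* (-0.52). The 2 protein-coding genes that flank *Avil* and *Tsfm*, *Ctdsp2* and *Eef1akmt3*, gave 0.02 and -0.23 (adjusted p = 0.840 and 0.0534). No gene of the window reached the 3.24 of *Avil*.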
